A study of Mus musculus with 9 samples.

Results

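The tissue kallikreins of the Klk1 cluster were followed in testes of Tmem203 null and wild-type (WT) mice. The 8 genes described are Klk1, Klk1b5, Klk1b8, Klk1b21, Klk1b22, Klk1b24, Klk1b26 and Klk1b27, each read through every probe set whose annotation names at least 1 of them. This gave 12 probe sets of the 45037 that were tested. A probe set is a group of short oligonucleotides that together read a transcript, and its value is a log2 signal. Of the 12, 10 were annotated to 1 gene and 2 were shared between genes of the cluster, namely the only probe set for Klk1b26, which also reads Egfbp2, and the only probe set for Klk1b22, which also reads Klk1b9. All 12 were detected, that is, at least 1 array reached a log2 signal of 5. The 8 genes were selected with the difference between null and WT arrays of these same samples in view, so their differences are given as a description and carry no p.

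The samples were untreated testes of C57BL/6J mice harvested at 24 weeks of age, 5 Tmem203 null and 4 WT, and each was hybridised to an Affymetrix whole-genome mouse array. The null allele is a germline change carried by every cell, in which the start codon was removed and a short remnant of the vector was left behind, so a transcript of the altered gene can remain. The study describes the arrays as those of a set of null and wild-type mice. Left and right testes were harvested separately, however, and no label or method ties each array to its animal, so the spread between arrays may be partly technical.

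Tissue kallikreins are secreted serine proteases. Klk1 itself cuts kininogens to release kinins, small peptides that act on the bradykinin receptors of vessels and smooth muscle. In the mouse the gene has been duplicated into a long tandem family, several members of which were first known as processing enzymes of growth factors and of renin in the salivary gland. In the adult mouse testis, Klk1b21, Klk1b24 and Klk1b27 are known as products of the Leydig cells, which lie between the tubules and make testosterone.

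In the RefSeq gene order of assembly GRCm38.p6, the 8 genes lay in a run of 24 annotated genes on chromosome 7, of which 14 were protein coding and 9 were pseudogenes. Klk1b8 opened the run and Klk1 closed it. Klk1b5 was separated from Klk1 by a single non-coding gene. The sequence just before the start of these genes is shown for 5 members, because it shows how alike the family is and where members differ. Each stretch is 80 bases of the plus strand of GRCm38.p6, from RefSeq promoter records, and ends with the motif TTTAAA in capitals. Klk1b5, Klk1b8 and Klk1b26 stand for the genes with lower signal in null testes, and Klk1b24 and Klk1b27 stand for the Leydig cell members. Klk1, which was lower too, is not shown because its window lacks the motif.
Klk1b5 (chr7:44216358-44216437): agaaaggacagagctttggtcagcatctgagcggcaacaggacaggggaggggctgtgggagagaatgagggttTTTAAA
Klk1b8 (chr7:43950548-43950627): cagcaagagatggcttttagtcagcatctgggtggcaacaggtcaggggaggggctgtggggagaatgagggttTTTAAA
Klk1b26 (chr7:44012578-44012657): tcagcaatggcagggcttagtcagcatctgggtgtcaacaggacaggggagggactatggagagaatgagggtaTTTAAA
Klk1b24 (chr7:44188131-44188210): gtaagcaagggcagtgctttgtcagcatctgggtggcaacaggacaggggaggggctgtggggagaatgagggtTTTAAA
Klk1b27 (chr7:44052199-44052278): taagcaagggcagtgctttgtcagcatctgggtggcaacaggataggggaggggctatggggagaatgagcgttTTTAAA
All 5 stretches hold the run gtcagcatctg upstream of the motif, those of genes with lower and those of genes with higher mean signal in null testes alike.

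The motif TTTAAA was looked for after the sequences had been seen. On either strand of the 250 bases before the start, it was present in 6 of the 8 members, against 12.1% of the 32851 RefSeq mouse promoters of the same length. Klk1 and Klk1b21 lacked these letters in that window. In Klk1b21 they lay just beyond it, from base 5 after the annotated start, which is placed further upstream in the aligned sequence than those of Klk1b24 and Klk1b27. In Klk1 they were not found in the 50 bases after the start either. In the other 6 its first base lay between positions -44 (Klk1b8) and -17 (Klk1b27), counted from -1 as the base just before the start. The letters TATAAA were in none of the 8 members and in 12.4% of all promoters. AGAACA, the core letters bound by androgen and glucocorticoid receptors, was in Klk1b24 alone among the members, at position -237, and in 16.1% of all promoters. AAGGTCA, the letters bound by the steroidogenic factor Nr5a1, lay on the minus strand of Klk1 and of Klk1b21, at positions -206 and -247, and in 4.08% of all promoters. Such matches are descriptions of letters and not of binding.

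Over the 250 bases before the start, the 3 Leydig cell members were the most alike of the 8. Klk1b21 and Klk1b24 shared 97.7% of 215 aligned positions, Klk1b21 and Klk1b27 93% of 228, and Klk1b24 and Klk1b27 90% of 241. Every other pair of members shared between 72.6% (Klk1 and Klk1b8) and 84.8% (Klk1 and Klk1b5). Because the annotated starts are offset between genes, the pairs with Klk1 rest on shorter aligned stretches, 158 positions for Klk1 and Klk1b5. Such likeness was not particular to the Leydig cell members. Among pairs with the other genes of the cluster, Klk1b26 shared 91.1% with Klk1b11 and 90.7% with Klk1b16, Klk1b11 shared 90.4% with Klk1b16, and Klk1b5 shared 90.3% with Klk1b4.

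**Figure D1:**
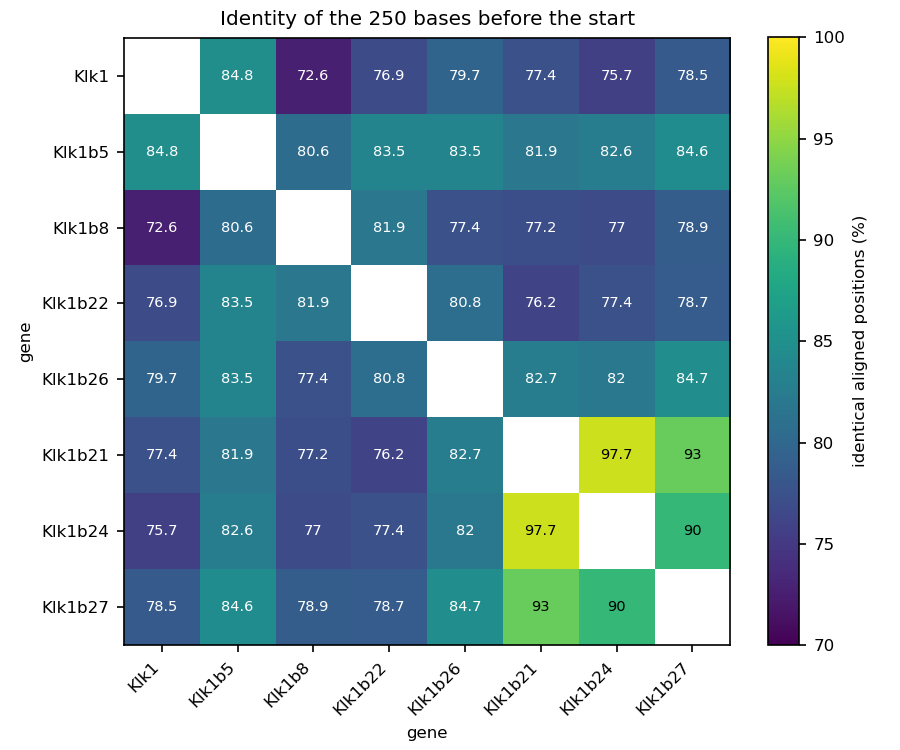
Identity between members over the 250 bases before the annotated start, in percent of aligned positions (colour and number), with genes on both axes. Klk1b21, Klk1b24 and Klk1b27 form the block at the lower right, at 90 to 97.7%, and the other pairs lie between 72.6 and 84.8%.

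Within this family of near copies, the array signals divided. Klk1, Klk1b5, Klk1b8 and the shared Klk1b26 and Egfbp2 probe set were lower on every null array than on any WT array, except for 1 of the 4 Klk1 probe sets. Klk1b21, Klk1b24 and Klk1b27 had higher means in null testes, with groups that overlapped, and the shared Klk1b9 and Klk1b22 probe set differed little. Whole testes were measured, so fewer cells of a type and less RNA per cell cannot be told apart.

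Klk1b5, the kallikrein gene nearest to Klk1 in the run, had the widest difference of the members. Its unsuffixed probe set read log2 signals of 8.39, 8.75, 8.93 and 8.74 on WT arrays 1 to 4 and of 6.92, 6.74, 6.97, 6.52 and 6.98 on null arrays 1 to 5. The lowest WT array stood well above the highest null array. Mean signals were 8.70 ± 0.23 (SD, n = 4) in WT and, in null testes, 6.83 ± 0.19 (SD, n = 5), which is 3.67-fold lower and a log2 difference of -1.87. The second probe set, with the suffix _x_at, ranged from 8.43 to 8.99 in WT and from 6.82 to 7.21 in null arrays, with a log2 difference of -1.62. Both probe sets thus read Klk1b5 lower by more than 3-fold, with no overlap between the groups.

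Klk1, the kinin-releasing kallikrein that gives the family its name, was read by 4 probe sets. On its unsuffixed probe set the log2 signals were 8.03, 8.33, 8.36 and 8.47 on the WT arrays and 7.44, 7.27, 7.40, 7.24 and 7.59 on the null arrays. The groups did not overlap, and the means of 8.30 ± 0.19 (SD, n = 4) and 7.39 ± 0.14 (SD, n = 5) gave a log2 difference of -0.91, or 1.88-fold lower in null testes. Of its 3 probe sets with the suffix _x_at, 2 had log2 differences of -0.82 and -0.50, again without overlap. On the last, WT arrays lay between 6.81 and 7.15 and null arrays between 6.69 and 6.89, so the groups overlapped at a log2 difference of -0.14. The 4 probe sets of Klk1 therefore had 1 direction and different sizes. This suffix, carried by 6 of the 12 probe sets, marks sets in which some oligonucleotides also match other transcripts, and how much of their signal came from other kallikreins was not tested.

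Klk1b8, which lies at the far end of the run from Klk1, had log2 signals of 11.97, 11.93, 11.86 and 12.20 on the WT arrays and of 11.52, 11.74, 11.57, 11.55 and 11.49 on the null arrays. The gap between the groups was narrow, and the log2 difference was -0.42, or 1.34-fold lower in null testes. The first of the shared probe sets reads Klk1b26, a prorenin-converting enzyme, together with Egfbp2, named for binding epidermal growth factor. Its log2 signals were 9.41, 9.64, 9.69 and 9.52 in WT and 8.92, 9.03, 8.80, 9.07 and 9.10 in null arrays, a log2 difference of -0.58. RefSeq gives Egfbp2 as a synonym of Klk1b26, whereas the array annotation treats it as a gene of its own. A further probe set annotated to Egfbp2 alone is not counted among the 12. Its WT arrays lay between 6.02 and 6.37, its groups overlapped, and its log2 difference was -0.22 (limma, adjusted p = 0.17).

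Klk1b27, a Leydig cell kallikrein, had the widest difference in the other direction. Its log2 signals were 10.12, 10.21, 10.96 and 9.71 on the WT arrays and 10.97, 10.84, 10.80, 11.14 and 11.44 on the null arrays. WT replicate 3 lay above 2 of the null arrays, and the other WT arrays lay below all null arrays. The means were 10.25 ± 0.52 (SD, n = 4) and 11.03 ± 0.26 (SD, n = 5), a log2 difference of 0.79, or 1.72-fold higher in null testes. Klk1b21 read 11.27, 11.32, 11.80 and 10.88 in WT and 11.90, 11.71, 11.56, 12.02 and 12.14 in null arrays, a log2 difference of 0.55. Klk1b24 read 10.82, 10.89, 11.51 and 10.43 in WT and 11.55, 11.21, 11.01, 11.61 and 11.76 in null arrays, a log2 difference of 0.52. In all 3 genes WT replicate 3 was the highest WT array, WT replicate 4 the lowest array of all 9, and null replicate 5 the highest of all 9.

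The other shared probe set, which reads Klk1b9 and Klk1b22, both once named for binding epidermal growth factor, had WT signals of 12.02, 12.11, 12.37 and 11.91 and null signals of 12.20, 12.08, 12.01, 12.40 and 12.32. The log2 difference was 0.10, less than the SD of 0.20 among WT arrays.

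**Figure D2:**
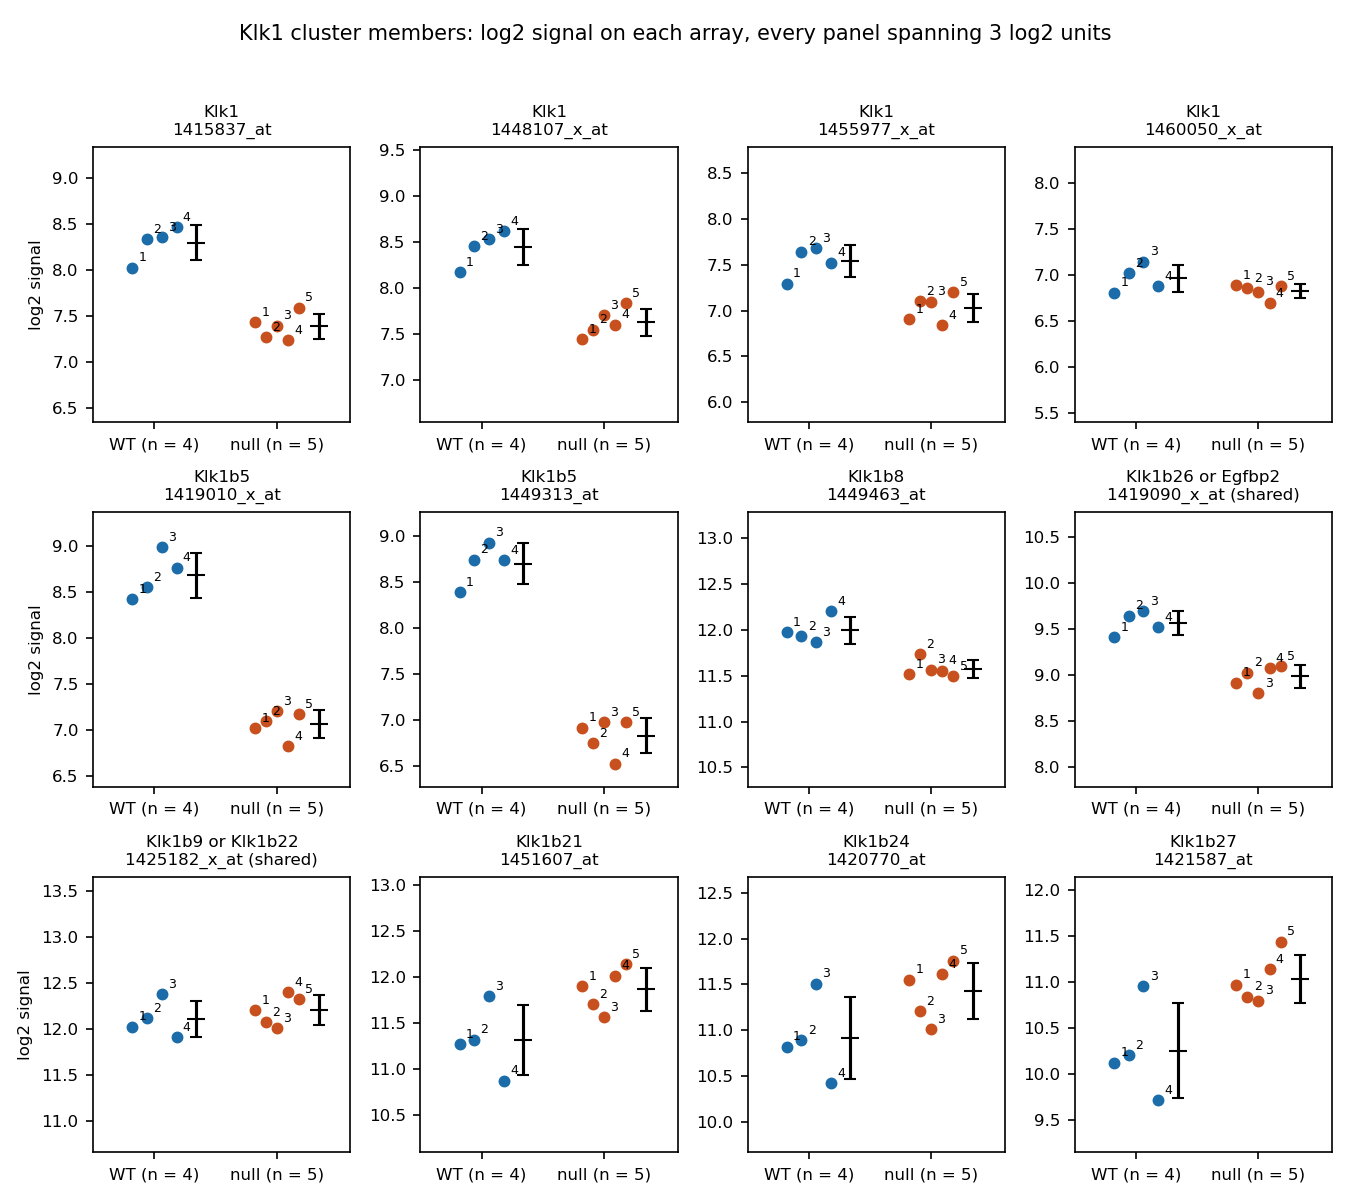
Log2 signal of the 12 member probe sets on each array (points, numbered by replicate), with the mean and SD of 4 WT and 5 null arrays beside them, and every panel spanning 3 log2 units. Both Klk1b5 probe sets and 3 of the 4 Klk1 probe sets separate the genotypes, whereas WT replicate 3 lies among the null arrays for Klk1b21, Klk1b24 and Klk1b27.

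At an adjusted p under 0.05 in limma, 7 of the 12 probe sets were called lower in null testes, none higher, and 5 were not called. Of all probe sets, 3.36% were called lower and 4.12% higher. The same 7 had every null array below every WT array, which held for 6.07% of all probe sets, and none had every null array above every WT array, which held for 5.68%. Since the genes were selected on this contrast, nothing is read from these counts. The median log2 difference of the 12 was -0.46, against -0.01 over all probe sets. Among the 6 probe sets without the suffix _x_at, 3 were called lower (Klk1, Klk1b5 and Klk1b8), and the median was 0.05, because the other 3 are Klk1b21, Klk1b24 and Klk1b27.

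WT replicate 3 stood apart from the other arrays over all probe sets. It had the lowest weight in limma's array weighting, 0.313 against 0.621 to 2.02 on the other 8 arrays, and even its closest other array correlated with it at no more than 0.996, the lowest such value of the 9. Without it the log2 differences were 0.71 for Klk1b21, 0.72 for Klk1b24 and 1.02 for Klk1b27, and all 3 were then called higher in null testes, as were 4.82% of all probe sets at that setting, whereas none of the 3 was called with all 9 arrays. This count too is on the contrast that chose the genes, and nothing is read from it. The difference of Klk1b5 on its unsuffixed probe set was -1.80 without WT replicate 3, and those of Klk1 and Klk1b8 were -0.89 and -0.46. No member difference changed its sign when any array was left out.

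**Figure D3:**
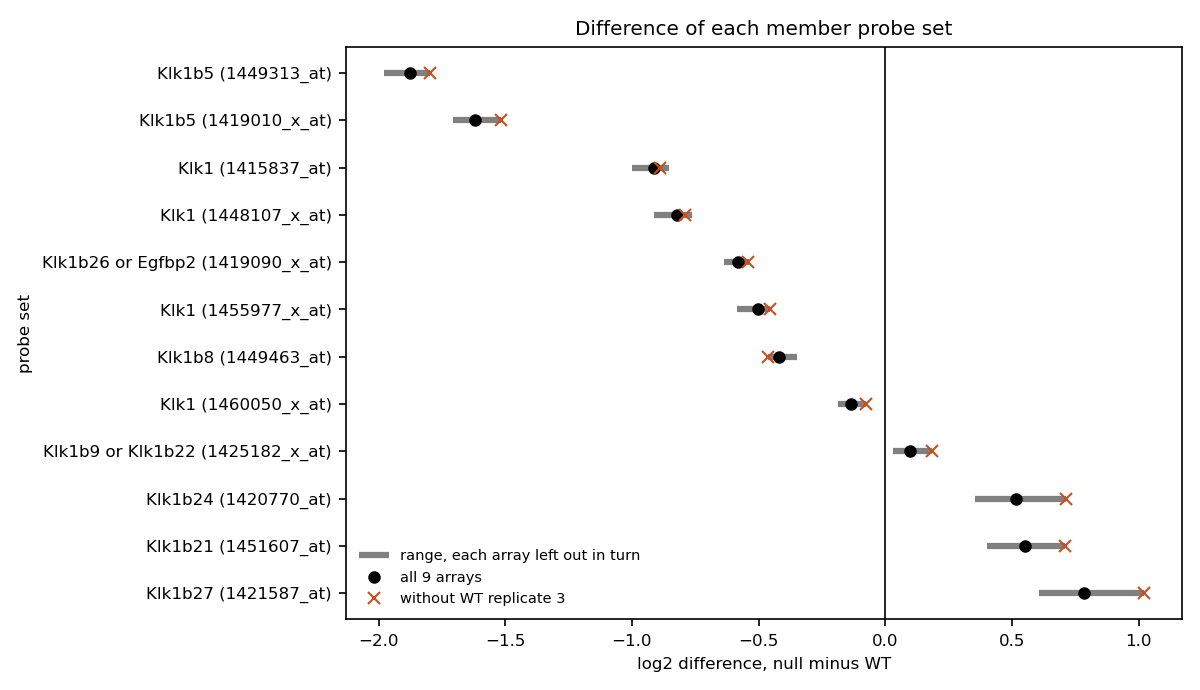
Log2 difference, null minus WT, of each member probe set with all 9 arrays (dots), its range when each array was left out in turn (grey bars) and its value without WT replicate 3 (crosses). Klk1b5 lies at -1.87 and -1.62, and the bars of Klk1b21, Klk1b24 and Klk1b27 are the widest on the right, with the upper end of each set by leaving out WT replicate 3.

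Variation among arrays of the same genotype is a different measure from the difference between genotypes. It is not independent of the calls, because limma weighs each difference against it, so members called lower are favoured to vary less. After the mean of each genotype was subtracted, the pooled SD of Klk1b27 was 0.39 log2 units, larger than that of 99.1% of detected probe sets. Klk1b24, at 0.37, exceeded 98.9%, and Klk1b21, at 0.30, exceeded 97.04%. Klk1b16, another kallikrein of the cluster that is not among the 8, had an SD of 0.53 and exceeded 99.7%. By contrast, Klk1 lay between the percentiles 45.1 and 74.3 on its 4 probe sets, Klk1b8 at 48.2, and Klk1b5 at 84.1 and 86.3.

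The same arrays were high or low in each of the Leydig cell members. Across the 9 arrays, the deviations from the genotype mean of Klk1b21 and Klk1b24 had a Pearson r of 0.993 and a Spearman rho of 1. The values were 0.971 and 0.983 for Klk1b21 with Klk1b27, and 0.954 and 0.983 for Klk1b24 with Klk1b27. Without WT replicates 3 and 4, which lay farthest out, the 3 coefficients were 0.988, 0.927 and 0.890. The shared Klk1b9 and Klk1b22 probe set followed Klk1b21 with r = 0.948 (rho = 0.967). Klk1b16 followed Klk1b27 with r = 0.793 (rho = 0.783). This came to 0.647 without WT replicate 3 and null replicate 5, and to 0.580 without WT replicate 3 alone.

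The members with lower signal differed in how far they followed this pattern. The shared Klk1b26 and Egfbp2 probe set followed Klk1b21 (r = 0.677, rho = 0.767), Klk1b24 (r = 0.682, rho = 0.767) and Klk1b27 (r = 0.662, rho = 0.817), with r between 0.616 and 0.789 inside either genotype. For Klk1b5 and Klk1b27 the value was not stable, with r = 0.321 (rho = 0.417) over all 9 arrays, 0.680 without WT replicate 1 and null replicate 4, and -0.10 without WT replicate 3. Klk1, on its unsuffixed probe set, and Klk1b27 had r = 0.152 (rho = 0.217). Klk1 and Klk1b5 followed each other with r = 0.831 (rho = 0.750), which came to 0.499 without WT replicate 1 and null replicate 4, so that relation rested in part on those arrays. Klk1b8 ran against the Leydig cell members, with r = -0.803 (rho = -0.917) to Klk1b21, and -0.859 without WT replicate 4 and null replicate 2. In all, 91 pairs of probe sets were compared. These coefficients are descriptions over 9 arrays that share a normalization, and near-identical transcripts can also be read by the same oligonucleotides, the share of which was not tested.

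**Figure D4:**
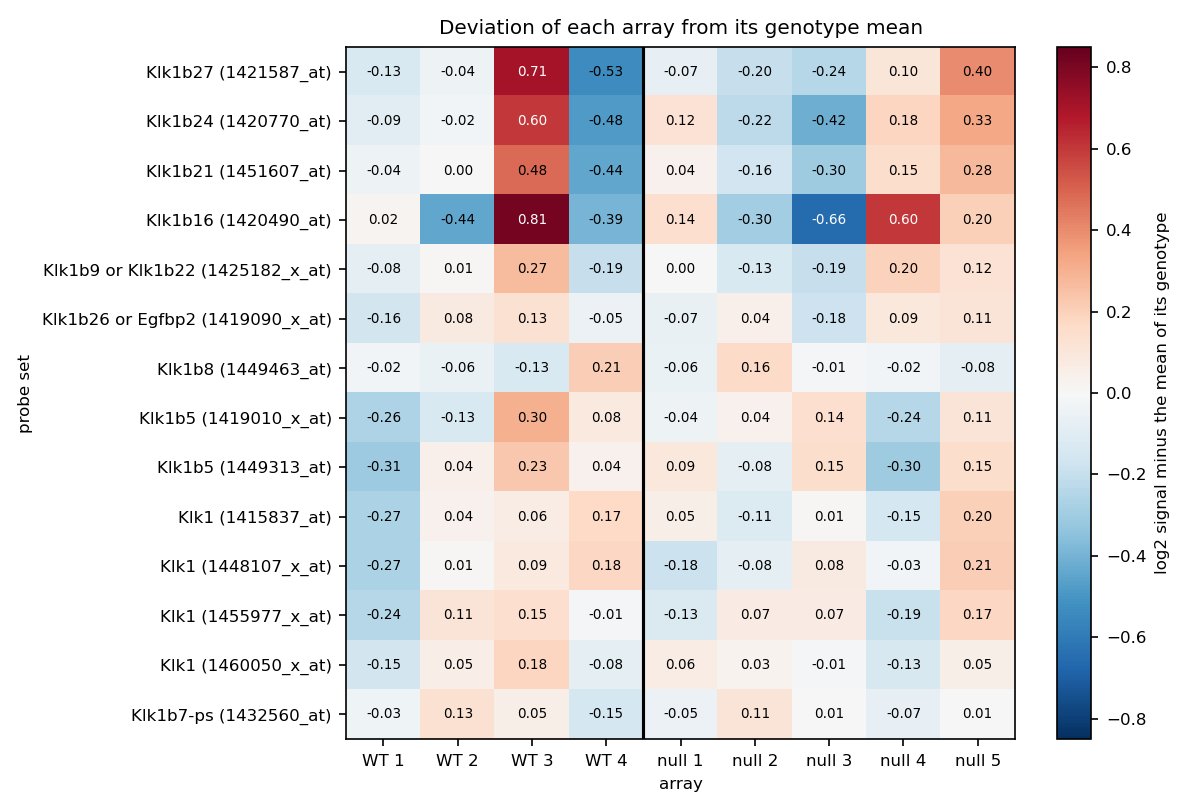
Deviation of each array from the mean of its genotype, in log2 units (colour and number), for the 12 member probe sets, Klk1b16 and the pseudogene Klk1b7-ps, with WT arrays left and null arrays right of the line. In the top rows WT 3 is high and WT 4 low in Klk1b27 (0.71 and -0.53), Klk1b24 and Klk1b21, while Klk1b8 is highest on WT 4 (0.21).

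Of the probe sets on the array, the one whose 9 signals most resembled those of Klk1b5 was read for Dscaml1, a neuronal adhesion protein (r = 0.995), followed by Rundc3a (0.992), Cby3 (0.990), 4933417G07Rik (0.990) and Cdkn1c, a cell cycle inhibitor (0.988), each the best probe set of its gene among 35144. All 5 were lower in null testes, by log2 differences from -0.52 (Rundc3a) to -1.08 (Dscaml1), as such a likeness requires when genotypes differ widely. After the genotype means were subtracted, none of these was among the 5 genes most like it, which were Dock9 (r = 0.979), Memo1 (0.977), Tbc1d22a (0.961), Klhdc10 (0.958) and Fam133b (0.953). For Klk1b27, an addition made after its values were seen, the most alike probe set over all 9 signals was that of Klk1b21 (r = 0.985), followed by Serinc1 (0.977), Cyth3 (0.976), Serpini1 (0.975) and Abhd6 (0.973). After the genotype means were subtracted, Serpini1 (0.980), Dnajc24 (0.978), Kdsr (0.977) and Mknk1 (0.974) were more like Klk1b27 than Klk1b21 was (0.971). All genes listed in this paragraph are the highest of 35144 probe sets over 9 arrays, and a search that wide can find such values by itself. The lists are therefore descriptions, and do not show that genes outside the cluster share its variation.

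Klk1b1, Klk1b11 and Klk1b16 are the other genes of the cluster with a detected probe set of their own. None of the 3 was called. Klk1b16, once called gamma-renin, averaged 8.60 ± 0.58 over the 4 WT arrays and 9.02 ± 0.49 over the 5 null arrays, a log2 difference of 0.42 (SE 0.30, adjusted p = 0.432). Klk1b1 differed by 0.16 (adjusted p = 0.75) and Klk1b11, near the detection limit, by -0.19 (adjusted p = 0.153). Klk1b3 and Klk1b4, components of the nerve growth factor complex of the salivary gland, and Klk1b9 had no probe set of their own in the annotation used. They could therefore not be read by themselves. The study lists Klk1b3 among the genes with lower expression in null testes. Of the 13 kallikrein-related peptidases and plasma kallikrein, 6 were detected and none was called. Plasma kallikrein, Klkb1, differed by -0.27 (adjusted p = 0.299), and Klk6 by -0.22 (adjusted p = 0.2).

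Of the 12 nearest genes with a detected probe set on either side of the run, 1 was called. It was the pseudogene Klk1b7-ps, next to Klk1b8, which averaged 9.61 ± 0.12 over the 4 WT arrays and 9.14 ± 0.07 over the 5 null arrays, a log2 difference of -0.47 (SE 0.07, adjusted p = 0.00285). Beyond it, Klk5, Klk6, Klk7, Klk8 and Klk12 were not called. On the side of Klk1, 1700028J19Rik, 2410002F23Rik, Clec11a, Shank1 and Syt3 were not called, with log2 differences between -0.18 and 0.19. 1700008O03Rik stood at -0.38 with an adjusted p of 0.0537. Over all 16180 genes with a detected probe set of their own, 6.82% were called lower and 8.03% higher through their probe set with the smallest p.

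The gene and marker lists were chosen with earlier results of these data known, so their counts of calls are descriptions. Over all genes, 8.03% were called higher and 6.82% lower. Among kininogens, kinin receptors and enzymes that break kinins down, 9 of 14 genes were detected, of which 1 was higher, 1 lower and 7 not called. Mme, the membrane peptidase neprilysin that degrades bradykinin, rose by 0.55 on the log2 scale (SE 0.08, adjusted p = 0.00324), and its signal was 7.50 ± 0.05 on the 4 WT arrays and 8.05 ± 0.16 on the 5 null arrays (mean ± SD). Its second probe set, at 0.28, was not called. Bdkrb2, the constitutive bradykinin receptor, fell by 0.25 on the log2 scale (SE 0.06, adjusted p = 0.0338). That call was lost without any 1 of 6 arrays, namely WT replicates 2 and 4 and null replicates 1, 3, 4 and 5, and its second probe set, at -0.12, was not called. Ace, the angiotensin-converting enzyme that also breaks down bradykinin and is abundant in spermatids, stood at -0.15 (adjusted p = 0.108), and the kininogen Kng1 at -0.10 (adjusted p = 0.721). The median log2 difference of the list was -0.10, against -0.03 over all genes.

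Among protease inhibitors that act on or resemble those acting on kallikreins, 10 of 15 genes were detected, and 3 rose, 1 fell and 6 were not called. Serpina3n, a serpin of the acute phase, rose by 1.52 on the log2 scale (SE 0.24, adjusted p = 0.00503), with 6.77 ± 0.60 on the 4 WT arrays and 8.29 ± 0.23 on the 5 null arrays. Spink8, an inhibitor of the Kazal type, rose by 0.97 (SE 0.07, adjusted p = 8.22e-05). Serpina5, the protein C inhibitor, which also inhibits tissue kallikrein, rose by 0.45 (SE 0.07, adjusted p = 0.00517). A2m, a broad protease trap, fell by 0.43 on the log2 scale (SE 0.08, adjusted p = 0.00883). The list's median difference was 0.01.

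Among growth factors, proteases and other proteins listed as possible substrates of tissue kallikreins, 11 of 15 genes were detected. Of these, 3 rose, none fell and 8 were not called. Whether kallikreins cut any of them, Ctsb included, was not tested. The risers were Igfbp3, a carrier of insulin-like growth factors, at a log2 difference of 1.05 (SE 0.22, adjusted p = 0.0175), the gelatinase Mmp9 at 0.90 (SE 0.10, adjusted p = 7.1e-04), and the lysosomal protease Ctsb at 0.41 (SE 0.10, adjusted p = 0.0375). The call of Ctsb was lost without any 1 of the arrays other than WT replicate 3 and null replicate 2. Both probe sets of Igfbp3 were called, whereas the second of Mmp9, at 0.30, was not. Epidermal growth factor, Egf, differed by -0.05 and was not called. The list's median difference was 0.12.

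**Figure D5:**
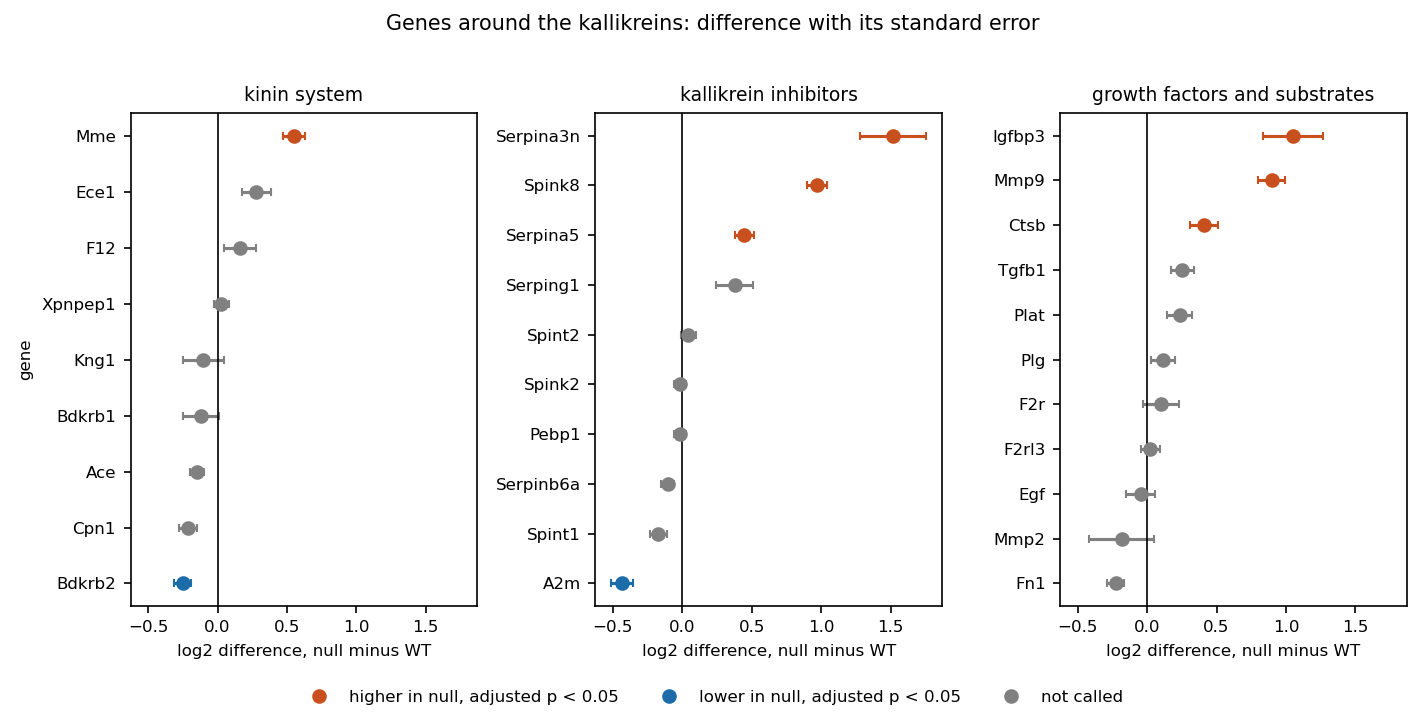
Log2 difference, null minus WT, with the standard error of limma, for the detected genes. Panels show the kinin system, the kallikrein inhibitors, and the growth factors and possible substrates. Calls at an adjusted p under 0.05 in limma are orange (higher) or blue (lower). Serpina3n, at 1.52, lies farthest to the right, and A2m, at -0.43, farthest to the left.

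Markers of several somatic cells of the testis moved with the genotypes. Of 14 Leydig cell markers 7 were detected, and 4 rose (Cyp11a1 by 0.50, Hsd3b1 by 0.64, Hsd17b3 by 0.45 and Nr5a1 by 0.37), while Star, at a log2 difference of 0.40 (adjusted p = 0.354), Cyp17a1, at 0.21 (adjusted p = 0.512), and Hao2, at 0.48 (adjusted p = 0.169), were not called. The second probe sets of Cyp11a1, at 0.34, and of Nr5a1, at 0.04, were not called either. The mean log2 signal of the detected markers lay between 10.49 and 11.03 on WT arrays and between 10.92 and 11.27 on null arrays. The deviations of this mean had r = 0.676 (rho = 0.350) with those of Klk1b27, 0.607 (0.450) with Klk1b21, 0.665 (0.450) with Klk1b24 and r = 0.718 (rho = 0.783) with those of Klk1b5. WT replicate 3 was the highest WT array here, as it was for Klk1b21, Klk1b24 and Klk1b27. The same held for the lists of Sertoli cells, androgen response, endothelium, red blood cells, epididymis and related tissues, and salivary gland and pancreas. With Klk1b27, the kinin system had r = 0.740 (rho = 0.717) and endothelium 0.634 (0.517). Every list was compared in this way, and only some coefficients are printed. No list coefficient, here or below, was recomputed without WT replicate 3. How far they rest on that array was therefore not tested. The call of Hsd17b3 was lost without WT replicates 2 or 4 or null replicates 1, 4 or 5, and that of Nr5a1 without WT replicates 1, 2 or 4 or null replicates 1, 2 or 4. Of 13 Sertoli cell markers 12 were detected and 8 rose (Sox9, Gata4, Amhr2, Rhox5, Clu, Wt1, Cldn11 and Eppin, by 0.21 to 0.42), of which Sox9, Gata4 and Eppin kept their call whichever array was left out. The second probe set of Gata4, at 0.34, was called. The second of Sox9, at 0.39, and the other probe sets of Amhr2, at 0.29 and 0.31, were not. The list had means of 10.25 to 10.44 on WT and 10.54 to 10.70 on null arrays. The deviations of this mean had r = 0.700 (rho = 0.733) with those of Klk1b27, 0.752 (0.783) with Klk1b21, 0.790 (0.783) with Klk1b24 and 0.271 (0.200) with Klk1b5. The part of either cell type in the kallikrein signals was not tested.

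Genes of androgen response had 6 of 8 detected, of which Eppin (0.42), Fkbp5 (0.40) and Rhox5 (0.30) rose and none fell. Eppin and Rhox5 are also counted among the Sertoli cell markers above, through the same probe sets. The deviations of the mean of the androgen list had r = 0.796 (rho = 0.700) with those of Klk1b27. The second probe set of Fkbp5, at 0.16, was not called. The study described serum testosterone, follicle stimulating hormone and luteinizing hormone as comparable between genotypes, without showing the data. Spermatid markers were detected 12 of 12 and none was called, with list means of 13.93 to 13.95 in WT and 13.88 to 13.94 in null testes. Their signals were very high, with WT means from 14.3 (Tnp2) to 14.7 (Prm2) among the Tnp and Prm1 and Prm2 genes. How well so high a signal shows a loss of cells was not tested. The study itself reported a large drop in condensed haploid cells of null testes at a later age. Genes of the epididymis, seminal vesicle and prostate, tissues that also secrete kallikreins, were below detection in 8 of 15 cases, the epididymal Lcn5 and Adam7 and the seminal vesicle gene Svs2 among them. Of the 4 detected, Svs6 (1.06, adjusted p = 5.6e-05) and Svs5 (0.71, adjusted p = 0.00297) rose and Svs4 fell by 0.58 on the log2 scale (adjusted p = 0.0291). The deviations of their mean log2 signal, which lay between 6.85 and 7.07 in WT and between 7.09 and 7.31 in null testes, had r = 0.945 (rho = 0.933) with those of Klk1b27, 0.914 (0.967) with Klk1b21 and 0.355 (0.317) with Klk1b5. Of 12 genes of the salivary gland and pancreas 7 were detected, and Amy1 rose by 0.39 while Clps fell by 0.67 on the log2 scale, with r = 0.870 (rho = 0.633) between the deviations of their mean and those of Klk1b27. The call of Rhox5 was lost without any 1 array other than WT replicate 3 and null replicate 2, that of Amy1 without any other than WT replicate 3 and null replicate 4, and that of Svs4 without WT replicates 1, 2 or 3 or null replicates 2 or 3. Eppin, Fkbp5, Svs5, Svs6 and Clps were called whichever array was left out. Their part in the kallikrein signals was not tested.

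The remaining marker lists were those of spermatogonia and spermatocytes, with 2 higher (Gfra1 at 1.27 and Kit at 0.46) and 1 lower (Dmc1 at -0.33) of 10, macrophages, with 1 higher (Mrc1 at 0.41) of 9, endothelium, with 1 lower (Vwf at -0.37) of 6, peritubular myoid cells, with none of 5, and red blood cells, with none of 2. The other probe sets of Gfra1, at -0.17 and 0.24, and the second of Dmc1, at 0.10, were not called. The second probe set of Kit, at 0.65, was called. The targeted gene, Tmem203, averaged 9.81 ± 0.13 over the 4 WT arrays and 9.11 ± 0.03 over the 5 null arrays, a log2 difference of -0.70. A probe set outside the removed part can still read the transcript of the null allele. The 3′ signal of the control transcript Gapdh exceeded its 5′ signal by 0.92 to 0.94 log2 units on WT arrays and by 0.81 to 0.90 on null arrays, and its part in the kallikrein signals was not tested.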

How the data were processed

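RNA from testes of 4 WT and 5 Tmem203 null samples was hybridised to 1 array each. The deposited table gives each probe set a log2 signal, which the authors made by Robust Multichip Average: background adjustment, quantile normalization and summarization. The submitters' processing notes name limma. Scans and scan dates were not used here, so neither the background step nor batches could be examined, and the number of arrays limits the precision.

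The contrast of null with WT was fitted for 45037 probe sets by lmFit and eBayes of limma 3.58.1 (R 4.3.3, two-sided), without the 64 manufacturer controls, and p was adjusted over all of them by Benjamini-Hochberg. A probe set with an adjusted p under 0.05 was called. For calls and differences, list genes were represented by the detected single-gene probe set of smallest p. List means on each array, and the coefficients drawn from them, used the detected single-gene probe set of highest mean signal instead. Symbols came from the platform annotation (34945 probe sets with 1 symbol, 932 with several, 9160 with none), updated through RefSeq for 34741. Promoters were aligned globally with free end gaps, and gaps within the overlap counted as differences. The fit was tested on simulated data.

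The members and all gene lists were chosen with earlier results of these data known. The genes named are all members, up to 3 genes of smallest p in each list and those called, the neighbouring genes, Tmem203, and the 5 genes most like Klk1b5 on each measure. Protein sequences were not used here. Alternatives covered scaling, the variance model, array weights, a signal filter, the choice of probe sets, the replicate number as a block and each array left out. Python 3.11.15 was used to join tables.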

Additional observations from a re-analysis of the deposited data

Results flagged for a closer look

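In a group of 4 or 5 arrays, an array was picked out when its gap to the nearest other array took up most of the range of its group (Dixon's ratio). Of 150 groups looked at, over 75 probe sets, 6 were picked out, and chance alone picks out about 1 group in 20. None was a member of the Klk1 cluster that the report describes. Klk1b11 was lowest on null replicate 4, at a log2 signal of 4.54 (ratio 0.833). Mme was highest in WT on replicate 3, at 7.58 (0.844), and Serpina5 lowest in WT on replicate 4, at 11.07 (0.881). Hsd17b3 was highest in null testes on replicate 1, at 12.05 (0.770), and so was Csf1r, at 10.12 (0.897). Gata4 was highest in WT on replicate 1, at 6.16 (0.909).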

How the results depend on the processing

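All 180 recomputed log2 differences of the member probe sets kept their sign and moved by less than the SD within genotypes. The 7 member calls became 9 with array weights or a trend and robust variance model (Klk1b21 and Klk1b27 added), 8 with the signal filter (Klk1b27 added), 6 without probe sets annotated to several genes and 3 without probe sets of the suffixes _s_at, _x_at and _a_at. They ranged from 7 to 10 as each array was left out, the 10 being without WT replicate 3. No label says whether the replicate numbers pair the arrays. The correlation of deviations of same-numbered arrays lay between -0.06 and 0.08. Arrays of different numbers were not compared in this way, so these values cannot decide whether the numbers pair the arrays. With the replicate block, which leaves out null replicate 5, 6 member probe sets were called, Klk1b8 being lost, and 1174 of all probe sets in place of 3367. The thresholds of the methods (1.5-fold, signal and a single gene) left 497 probe sets, and leaving out 1 array gave 1925 to 3603. Of 117 genes of the lists 32 were called, 17 with the replicate block and 22 to 33 as each array was left out. Among the 12 neighbouring genes 2 were called in place of 1 with median centring, with the signal filter and with the trend and robust variance model, 1700008O03Rik being added, and 1 to 2 as each array was left out. Of 945 recomputed differences of named genes, 91 lost their call and 11 gained one. With 4 and 5 arrays, members that vary widely within a genotype, such as Klk1b24, limit what can be seen.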
